A study of Mus musculus with 9 samples.

Results

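Livers of mice given gefitinib, alone or with glycyrrhizic acid, were set against livers of mice given saline, to describe what gefitinib exposure changed whether or not the second agent was present. The 6 exposed libraries were 3 from the gefitinib group and 3 from the glycyrrhizic acid plus gefitinib group, called combined here, and the 3 saline libraries were the controls, so all 9 libraries of the series entered. Treatment lasted 16 days in every group. The dose, route, strain, sex and age were not given in the sources used here, and no group received glycyrrhizic acid alone. The study's title names liver toxicity of gefitinib and its attenuation by glycyrrhizic acid as the question.

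A gene met the shared rule when its 6 exposed values all lay above or all lay below its 3 saline values and when its gefitinib and combined means differed by less than 1.5-fold. Values are given as CPM, each gene's share of its library's counts, on library sizes scaled by TMM, the trimmed mean of M values. The rule was met by 1454 of 18113 tested genes (8.03% of them), 685 higher (3.78%) and 769 lower (4.25%) in exposed livers. Because the rule reads the same values as the contrast of exposed with saline, these counts are a description. The number of genes that met the rule and were also called in that contrast was 696 (3.84%).

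Gefitinib blocks the kinase of the epidermal growth factor receptor (EGFR), a receptor that hepatocytes carry in large amounts and that signals through RAS and ERK to growth and metabolism. Glycyrrhizic acid is a saponin of licorice root. The liver sinusoid is lined by fenestrated endothelial cells that clear waste molecules through scavenger receptors, while hepatocytes make plasma proteins, cholesterol and bile acids and detoxify drugs through cytochrome P450 enzymes and conjugating enzymes such as glutathione transferases.

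The libraries held 56440871 to 60665156 counts each, with TMM factors from 0.905 to 1.14. The hepatocyte markers summed to 98460 to 102855 CPM with gefitinib, 78218 to 94575 CPM with both agents and 96640 to 110554 CPM with saline, and were abundant in every library. Skeletal muscle markers summed to 234 CPM in gefitinib 1 and to 201, 160 and 181 CPM in the combined libraries, against 1.10 and 0.997 CPM in the other gefitinib libraries and 0.769, 1.46 and 1.55 CPM in the saline libraries. Those 4 libraries therefore stand apart in muscle transcripts, whose part in the results was not tested. The first principal component held 32.1% of the variance and ordered the groups from saline through gefitinib to combined. Nothing in the labels ties the livers to individual mice, so the p-values rest on the spread among libraries, which may be technical.

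In the pooled contrast, the mean of the gefitinib and combined groups against saline, 1720 genes were called by edgeR's quasi-likelihood test at a Benjamini-Hochberg adjusted p under 0.05 (9.5% of tested genes), 873 higher (4.82%) and 847 lower (4.68%). Of these, 576 higher and 543 lower genes had exposed values that did not overlap the saline values. Whether called or not, 5.47% of all tested genes were free of overlap with exposed livers higher, and 5.61% with exposed livers lower. Among the called genes free of overlap, 325 higher and 371 lower genes met the shared rule, and 251 higher and 172 lower genes had gefitinib and combined means further apart than 1.5-fold. In 407 of those 423 genes it was the combined mean that lay further from saline. The other 601 called genes had overlapping values. The balance of rises and falls depended on the scaling. Scaling to library size alone gave 1332 higher and 516 lower genes (72.1% higher), log2(FPKM + 1) gave 1480 and 505 (74.6% higher) and log2(FPKM + 0.1) gave 1514 and 478 (76% higher), against 50.8% higher in the main contrast. Library size scaling also placed the median gene 0.11 log2 units above saline, against −0.01 with TMM.

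These counts were sensitive to single libraries. Leaving out saline 2 gave 422 higher and 378 lower calls, leaving out saline 3 gave 505 and 439, leaving out saline 1 gave 597 and 508, and leaving out gefitinib 2 gave 649 and 526. Leaving out all 4 libraries with muscle transcripts left 2 gefitinib and 3 saline libraries and gave 14 higher and 13 lower calls. All 3 combined libraries are among the 4, so that contrast is gefitinib against saline alone. In it 67 of the 71 named genes lost their call, and Egfr, not called in the main contrast, was not called either. Against saline, gefitinib alone had 206 called genes (1.14%) and the combined group 3205 (17.7%). Both comparisons use the same saline libraries, so their overlap is not a result.

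The shared genes that were called changed by modest amounts. The median fold was 1.54 among the 325 higher genes, with quartiles of 1.38 and 2.00, and 1.56 among the 371 lower genes, with quartiles of 1.39 and 2.14. They were more often protein coding than tested genes as a whole, 96% of the higher and 91.9% of the lower set against 78.7%. They were also more abundant, with a median over genes of 25.7 CPM in the higher and 21.8 CPM in the lower set against 6.98 CPM over all tested genes. The call itself favours genes with more counts, and the other called genes were not compared. Neither difference can therefore be tied to the shared rule. Even within the 1.5-fold limit the combined group lay further from saline than gefitinib in 274 of the higher genes (84.3%) and 289 of the lower genes (77.9%), where the share over all tested genes was 65.9%. A difference between combined and gefitinib was itself called for 53 of the 696 genes, 26 of the higher and 27 of the lower, where 9.08% of all tested genes had that call. So a ratio within the limit does not mean that the groups were alike.

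The largest shared rises included genes of fat synthesis, nucleic acid sensing, chromosome segregation, drug uptake and the acute phase. Thrsp (chr7:97412938-97417730, minus strand in the deposited table), a regulator of lipogenesis in liver, had 52.1, 49.1 and 40.8 CPM in the gefitinib libraries, 19.2, 97 and 37.8 CPM in the combined libraries and 17.4, 9.46 and 8.94 CPM in the saline libraries. All exposed values lay above saline, although combined 1 came within reach of saline 1. The rise was 4.13-fold (pooled log2 fold change 2.05 ± 0.47 (SE), edgeR adjusted p = 0.0242), with fold changes of 3.97 for gefitinib and 4.3 for the combined group. On its own the gefitinib change was not called (edgeR adjusted p = 0.106), while the combined change was (0.0189). Zbp1, a sensor of Z-form nucleic acid that is induced by interferon, had 12.6, 12.4 and 9.92 CPM with gefitinib, 15.7, 12.3 and 20.6 CPM with both agents and 4.22, 2.02 and 4.65 CPM with saline. Zbp1 rose 3.78-fold (pooled log2 fold change 1.92 ± 0.28 (SE), edgeR adjusted p = 0.00366). Cenpm, a centromere protein, had nearly the same mean in both exposed groups, 9.26 ± 2.08 CPM with gefitinib, 9.35 ± 1.27 CPM with both agents and 2.49 ± 0.427 CPM with saline (SD, n = 3 each). Cenpm rose 3.74-fold (pooled log2 fold change 1.90 ± 0.20 (SE), edgeR adjusted p = 0.000909). The log2 difference of combined from gefitinib was 0.01 (95% interval −0.46 to 0.49) for Cenpm, 0.47 (95% interval −0.18 to 1.13) for Zbp1 and 0.12 (95% interval −0.96 to 1.19) for Thrsp, intervals that all include 0 and are widest for Thrsp. Single libraries decided some calls, with the edgeR adjusted p in brackets, without saline 2 for Thrsp (0.103) and without saline 3 for Thrsp (0.0953).

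Ptgr1, a reductase of prostaglandins and lipid aldehydes, had 11.8, 8.03 and 5.86 CPM with gefitinib, 9.5, 9.04 and 13.2 CPM with both agents and 2.75, 3.25 and 1.96 CPM with saline. Ptgr1 rose 3.59-fold (pooled log2 fold change 1.84 ± 0.27 (SE), edgeR adjusted p = 0.00379). Uap1l1, related to the enzymes that make nucleotide sugars, had 18.9, 31.6 and 18.7 CPM with gefitinib, 29.4, 28.6 and 25.6 CPM with both agents and 8.1, 7.44 and 5.95 CPM with saline. Uap1l1 rose by 1.82 ± 0.20 (SE) on the log2 scale, with an edgeR adjusted p of 0.000941. Serpinb6b, an intracellular protease inhibitor, had 1.64, 3.08 and 3.59 CPM with gefitinib, 3.02, 2.49 and 3.71 CPM with both agents and 0.947, 0.808 and 0.765 CPM with saline. Serpinb6b rose by 1.79 ± 0.31 (SE) on the log2 scale, with an edgeR adjusted p of 0.00843. Gnat1, the transducin subunit best known from rod photoreceptors, had 7.49, 8.31 and 8.22 CPM with gefitinib, 6.03, 4.61 and 8.89 CPM with both agents and 2.41, 2.56 and 1.55 CPM with saline. Gnat1 rose by 1.73 ± 0.25 (SE) on the log2 scale, with an edgeR adjusted p of 0.00375. No exposed library reached a saline value in any of these genes, and their log2 differences of combined from gefitinib had intervals from −0.90 for Gnat1 at the lowest to 0.94 for Ptgr1 at the highest.

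Gemin4, a component of the complex that assembles small nuclear ribonucleoproteins, had 7.73, 6.59 and 6.09 CPM with gefitinib and 9.09, 6.63 and 5.85 CPM with both agents, against values near 0 with saline, 0, 0.0577 and 0.0373 CPM (edgeR adjusted p = 0.000128). No fold is given because its saline values rest on few reads. Its interval on chromosome 11 (chr11:76210571-76217664, minus strand) lies inside that of Glod4 on the same strand and overlaps that of Fam57a on the other, and whether the counting used strand is not given in the sources used here, so reads of these genes cannot be told apart. Glod4 had 40.7 ± 1.6 CPM with gefitinib, 31.8 ± 3.13 CPM with both agents and 44.7 ± 2.64 CPM with saline (SD, n = 3 each), and Fam57a, which was not called (edgeR adjusted p = 0.728), had 2.47 ± 0.440 CPM with gefitinib, 2.18 ± 0.797 CPM with both agents and 2.63 ± 0.124 CPM with saline.

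**Figure D1:**
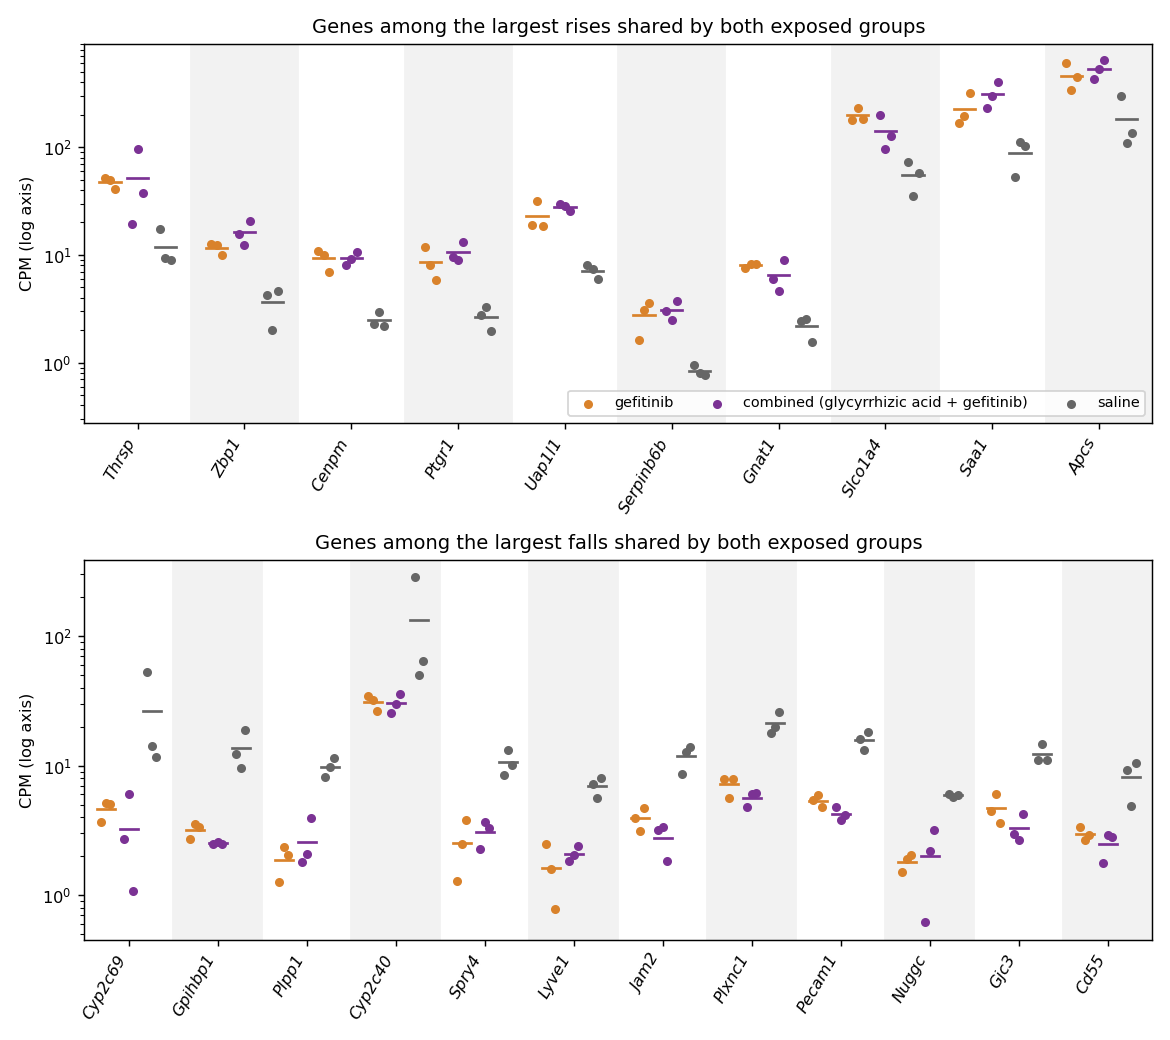
Values of genes among the largest shared rises (upper panel) and falls (lower panel), in CPM on a log axis, with 1 point per library and a bar at each group mean; gefitinib is left, combined in the middle and saline right within each gene. In every gene shown the 6 exposed points lie on one side of the 3 saline points, and for Cyp2c69 and Cyp2c40 saline 1 lies far above the other saline points.

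The largest shared falls included genes of vessels and of cell adhesion, P450 enzymes and an inhibitor of ERK signalling. Gpihbp1 (chr15:75596628-75598213, plus strand), the protein that holds lipoprotein lipase on capillary endothelium, had 2.7, 3.53 and 3.36 CPM in the gefitinib libraries, 2.49, 2.58 and 2.49 CPM in the combined libraries and 12.3, 9.65 and 18.9 CPM in the saline libraries. The exposed values were close to one another and all lay far under saline, a fall of 4.8-fold (pooled log2 fold change −2.26 ± 0.20 (SE), edgeR adjusted p = 0.00041). Plpp1, a lipid phosphate phosphatase, had 1.26, 2.33 and 2.03 CPM with gefitinib, 1.79, 2.06 and 3.9 CPM with both agents and 8.19, 9.77 and 11.5 CPM with saline. Plpp1 fell 4.46-fold (pooled log2 fold change −2.16 ± 0.27 (SE), edgeR adjusted p = 0.00204). Its interval overlaps that of Mtrex on the opposite strand. Jam2, an adhesion molecule of endothelial junctions, fell 3.57-fold (pooled log2 fold change −1.84 ± 0.23 (SE), edgeR adjusted p = 0.00191). Its values were 3.91, 3.11 and 4.72 CPM with gefitinib, 3.15, 3.33 and 1.83 CPM with both agents and 8.6, 12.8 and 13.9 CPM with saline. Plxnc1, a receptor for semaphorins, fell 3.33-fold (pooled log2 fold change −1.74 ± 0.16 (SE), edgeR adjusted p = 0.000515). Its values were 7.85, 5.66 and 7.93 CPM with gefitinib, 4.78, 5.99 and 6.14 CPM with both agents and 17.7, 19.8 and 25.9 CPM with saline.

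Nuggc, a nuclear GTPase, had 1.49, 1.9 and 2.05 CPM with gefitinib, 0.616, 2.18 and 3.18 CPM with both agents and 6.06, 5.77 and 5.97 CPM with saline. Nuggc fell by 1.64 ± 0.38 (SE) on the log2 scale, with an edgeR adjusted p of 0.0261. Gjc3, a connexin, had 4.47, 6.01 and 3.62 CPM with gefitinib, 2.96, 2.67 and 4.27 CPM with both agents and 11.1, 14.7 and 11 CPM with saline. Gjc3 fell by 1.64 ± 0.21 (SE) on the log2 scale, with an edgeR adjusted p of 0.00191. Cd55, which shields cells from complement, had 3.33, 2.68 and 2.89 CPM with gefitinib, 1.76, 2.9 and 2.83 CPM with both agents and 9.29, 4.88 and 10.4 CPM with saline. Cd55 fell by 1.59 ± 0.25 (SE) on the log2 scale, with an edgeR adjusted p of 0.00562. In all 3 genes each exposed value was under each saline value, with saline 2 the lowest saline value of Cd55. The Nuggc call was lost without gefitinib 1, gefitinib 2, gefitinib 3, saline 1, saline 2 or saline 3 (edgeR adjusted p between 0.0505 and 0.079).

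Spry4, a feedback inhibitor that growth factor receptors induce through ERK, fell 3.81-fold in the pooled contrast (pooled log2 fold change −1.93 ± 0.30 (SE), edgeR adjusted p = 0.00484). Its values were 1.28, 2.48 and 3.78 CPM with gefitinib, 2.26, 3.7 and 3.27 CPM with both agents and 8.45, 13.2 and 10.1 CPM with saline, so the highest exposed value, 3.78 CPM, was far under the lowest saline value, 8.45 CPM. Phlda1, another gene induced downstream of receptor kinases, had 37.5, 41.2 and 42.6 CPM with gefitinib, 29.1, 28.7 and 24.7 CPM with both agents and 57.4, 66.7 and 94.4 CPM with saline. Phlda1 fell by 1.13 ± 0.14 (SE) on the log2 scale, with an edgeR adjusted p of 0.00185. Its combined values all lay under its gefitinib values. These were the only 2 of 24 tested genes of ERK feedback and targets that were called lower (8.33%, against 4.68% of all tested genes), and both met the shared rule. The 2 called higher (8.33%, against 4.82%), Ccnd1 and Dusp5, did not meet it. Ccnd1, the cyclin that growth factors induce, averaged 26.9 ± 4.77 CPM with gefitinib, 63.4 ± 13.9 CPM with both agents and 8.12 ± 2.66 CPM with saline (SD, n = 3 each). Dusp5, a phosphatase of ERK, averaged 1.24 ± 0.171 CPM with gefitinib, 5.57 ± 0.298 CPM with both agents and 1.03 ± 0.249 CPM with saline. For Dusp5 the log2 difference of combined from gefitinib was 2.17 (95% interval 1.58 to 2.76), and the gefitinib and saline values overlapped. Over the list the median log2 fold change was −0.12, against −0.01 over all tested genes.

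Egfr itself (chr11:16752203-16918158, plus strand), the target of the drug, had 453, 698 and 637 CPM in the gefitinib libraries, 371, 429 and 606 CPM in the combined libraries and 499, 270.4 and 366 CPM in the saline libraries. The groups overlapped and Egfr was not called (pooled log2 fold change 0.48, edgeR adjusted p = 0.225). Of 14 tested receptors, ligands and inhibitors of the family, 3 ligands were called higher (21.4%, against 4.82% of all tested genes), and none of the 3 met the shared rule. The receptor Erbb2 met it, lower in exposed livers, but was not called (edgeR adjusted p = 0.184). Tgfa, a ligand of EGFR, averaged 17.3 ± 2.28 CPM with gefitinib, 37.4 ± 7.76 CPM with both agents and 15.5 ± 1.24 CPM with saline (SD, n = 3 each). Nrg4, a ligand of ErbB4, averaged 6.22 ± 1.31 CPM with gefitinib, 9.81 ± 1.1 CPM with both agents and 3.95 ± 1.01 CPM with saline. Nrg1, a ligand of ErbB3 and ErbB4, averaged 0.470 ± 0.353 CPM with gefitinib, 5.69 ± 4.2 CPM with both agents and 0.169 ± 0.0855 CPM with saline. In each the combined mean was the furthest from saline, with a log2 difference of combined from gefitinib of 1.11 (95% interval 0.75 to 1.47) for Tgfa, 0.66 (95% interval 0.14 to 1.18) for Nrg4 and 3.59 (95% interval 2.06 to 5.12) for Nrg1.

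Sinusoidal endothelial genes fell together. Of 36 tested members, 32 were called lower and none higher (88.9% lower, against 4.68% of all tested genes), and all 36 had a fitted change below zero. This list, like the other gene lists here, was chosen with earlier results of these data known, so its share is a description. The median log2 fold change was −1.55 pooled, −1.25 for gefitinib and −1.77 for the combined group, against −0.01 over all tested genes pooled. By library, the median over members lay 1.19, 1.39 and 1.23 log2 units under the saline mean with gefitinib and 1.91, 1.65 and 1.80 units under it with both agents, while the saline libraries lay at 0.04, −0.21 and 0.17. Of the 32 called members, 17 met the shared rule. The list summed to 402, 408 and 386 CPM with gefitinib, 229, 316 and 336 CPM with both agents and 933, 819 and 1006 CPM with saline. In bulk tissue, fewer cells of a type and less RNA per cell cannot be told apart.

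**Figure D2:**
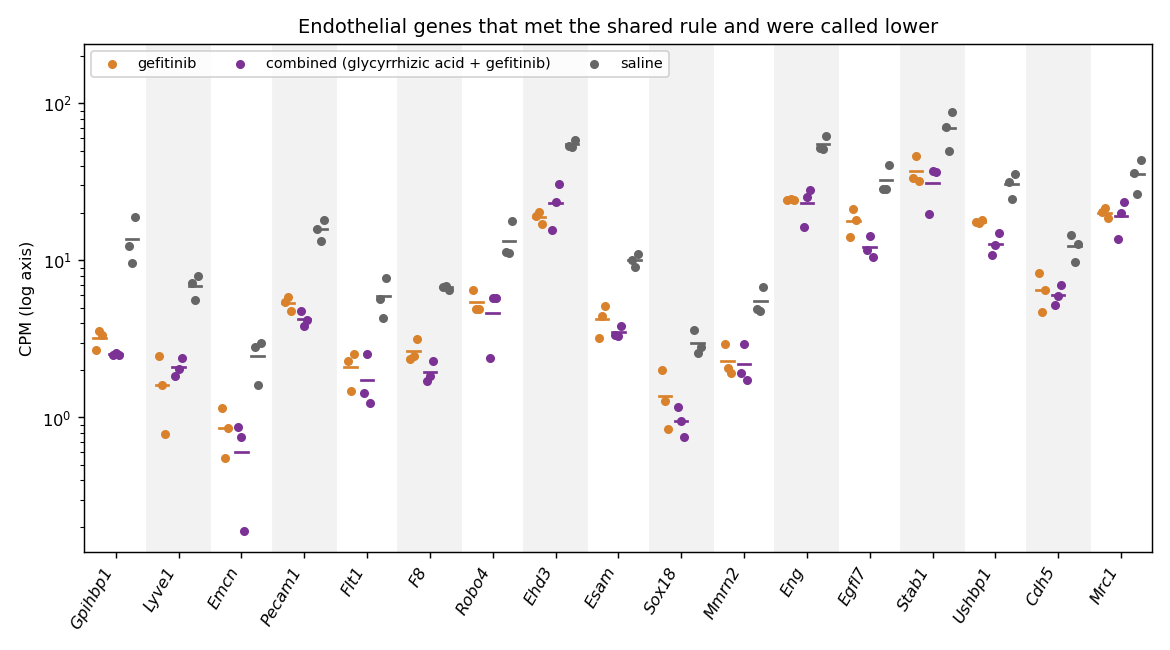
The 17 endothelial genes that met the shared rule and were called lower, in CPM on a log axis, with 1 point per library and a bar at each group mean; gefitinib is left, combined in the middle and saline right within each gene. In each gene all 6 exposed points lie under the 3 saline points, and the gefitinib and combined points sit close together or overlap.

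Among junction and surface proteins of endothelium, the adhesion molecule Pecam1 fell 3.3-fold (pooled log2 fold change −1.72 ± 0.14 (SE), edgeR adjusted p = 0.000287). Its values were 5.42, 5.88 and 4.79 CPM with gefitinib, 4.8, 3.8 and 4.15 CPM with both agents and 15.9, 13.3 and 18 CPM with saline. Cdh5, the cadherin of endothelial junctions, fell 1.96-fold (pooled log2 fold change −0.97 ± 0.20 (SE), edgeR adjusted p = 0.0147). Its values were 8.27, 4.7 and 6.53 CPM with gefitinib, 5.22, 5.91 and 7.02 CPM with both agents and 14.5, 9.75 and 12.7 CPM with saline. Esam, an adhesion molecule, fell 2.62-fold (pooled log2 fold change −1.39 ± 0.17 (SE), edgeR adjusted p = 0.00168). Its values were 3.19, 4.45 and 5.13 CPM with gefitinib, 3.34, 3.28 and 3.81 CPM with both agents and 10.1, 9.06 and 11.1 CPM with saline. Emcn, a sialomucin, was low throughout, with 1.15, 0.549 and 0.857 CPM with gefitinib, 0.865, 0.748 and 0.189 CPM with both agents and 2.81, 1.62 and 2.99 CPM with saline (pooled log2 fold change −1.78 ± 0.45 (SE), edgeR adjusted p = 0.0361). The values of each of these 4 genes separated exposed from saline livers, and Cdh5 came closest to overlap, with gefitinib 1 at 8.27 CPM and saline 2 at 9.75 CPM.

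Scavenger and clearance receptors of the sinusoid were among the called members. Lyve1, a receptor for hyaluronan, fell 3.76-fold (pooled log2 fold change −1.91 ± 0.30 (SE), edgeR adjusted p = 0.00494). Its values were 2.47, 1.6 and 0.787 CPM with gefitinib, 1.85, 2.03 and 2.39 CPM with both agents and 7.22, 5.6 and 7.95 CPM with saline. Stab1, a scavenger receptor, fell 2.04-fold (pooled log2 fold change −1.03 ± 0.23 (SE), edgeR adjusted p = 0.0216). Its values were 33.3, 46.4 and 31.9 CPM with gefitinib, 19.7, 36.9 and 36.8 CPM with both agents and 70.9, 49.9 and 87.8 CPM with saline. Mrc1, the mannose receptor, fell 1.8-fold (pooled log2 fold change −0.85 ± 0.18 (SE), edgeR adjusted p = 0.0199). Its values were 20.3, 21.7 and 18.5 CPM with gefitinib, 13.7, 20.2 and 23.6 CPM with both agents and 35.9, 26.5 and 43.6 CPM with saline. The related Stab2, a receptor for hyaluronan, did not meet the shared rule, because its combined values of 25.8, 30.2 and 32.1 CPM lay further down than its gefitinib values of 49.4, 53.7 and 40.6 CPM, against 91.5, 112 and 121 CPM with saline. Its log2 difference of combined from gefitinib was −0.71 (95% interval −1.03 to −0.38) (edgeR adjusted p = 0.0164). The Fc receptor Fcgr2b and the lectin Clec4g also fell further with both agents. Fcgr2b averaged 21.1 ± 1.28 CPM with gefitinib, 11.4 ± 2.23 CPM with both agents and 49.8 ± 6.18 CPM with saline (SD, n = 3 each). Clec4g averaged 19.5 ± 3.15 CPM with gefitinib, 8.63 ± 3.52 CPM with both agents and 53.4 ± 6.65 CPM with saline.

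Receptors for vessel growth factors fell in the pooled contrast. Flt1, a receptor for VEGF, fell 3.08-fold and met the shared rule (pooled log2 fold change −1.62 ± 0.29 (SE), edgeR adjusted p = 0.00938). Its values were 2.29, 1.48 and 2.55 CPM with gefitinib, 1.42, 2.55 and 1.23 CPM with both agents and 5.72, 4.27 and 7.71 CPM with saline. Kdr, the main signalling receptor for VEGF, had 11.2, 9.51 and 11.1 CPM with gefitinib, 2.6, 4.09 and 7.48 CPM with both agents and 37.4, 29.5 and 36.1 CPM with saline, and its difference of combined from gefitinib was −1.17 (95% interval −1.86 to −0.48) on the log2 scale. Tek, the angiopoietin receptor, fell 3.15-fold with gefitinib and 5.66-fold with both agents, and its relative Tie1 fell 2.13-fold and 3.42-fold. Eng, a co-receptor for BMP and TGF-β, had nearly the same mean in both exposed groups, 24.3 ± 0.188 CPM with gefitinib, 23.3 ± 6.25 CPM with both agents and 55.3 ± 6.01 CPM with saline (SD, n = 3 each), a fall of 2.32-fold (pooled log2 fold change −1.22 ± 0.15 (SE), edgeR adjusted p = 0.0018). Its interval overlaps that of Fpgs on the opposite strand.

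Secreted factors and intracellular proteins of these cells were also among them. F8, coagulation factor VIII, which liver endothelium makes, had 2.36, 2.46 and 3.17 CPM with gefitinib, 1.72, 1.83 and 2.28 CPM with both agents and 6.81, 6.92 and 6.49 CPM with saline. F8 fell 2.96-fold (pooled log2 fold change −1.57 ± 0.17 (SE), edgeR adjusted p = 0.00104). Ehd3, a membrane trafficking protein, had 19.1, 20.3 and 17 CPM with gefitinib, 15.7, 23.6 and 30.7 CPM with both agents and 53.5, 53 and 58.6 CPM with saline. Ehd3 fell 2.63-fold (pooled log2 fold change −1.39 ± 0.17 (SE), edgeR adjusted p = 0.00164). The transcription factor Sox18 fell 2.61-fold, Robo4 fell 2.66-fold, Egfl7 fell 2.2-fold, Mmrn2 fell 2.44-fold and Ushbp1 fell 2.04-fold, all within the shared rule. Bmp2, which endothelium supplies to hepatocytes for iron sensing, fell 3.26-fold with gefitinib and 5.45-fold with both agents, beyond the 1.5-fold limit. Wnt2, a Wnt ligand of the central vein region, was 3.77-fold lower with gefitinib and 6.03-fold lower with both agents, and the first of these contrasts was not called on its own (edgeR adjusted p = 0.0922).

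The 4 members that were not called were Nos3 (edgeR adjusted p = 0.0782), Wnt9b (0.244), Rspo3 (0.361) and Plvap (0.525). Plvap, a protein of endothelial diaphragms, averaged 26.6 ± 7.22 CPM with gefitinib, 32 ± 3.82 CPM with both agents and 33.6 ± 6.65 CPM with saline (SD, n = 3 each), so it did not follow the rest of the list in these libraries. A difference between combined and gefitinib was called for 9 of the 36 members, all lower with both agents. The count of 32 became 25 without saline 3, 26 without saline 1 and 6 without the 4 libraries with muscle transcripts (30 at an unadjusted p under 0.05), and the 17 shared members became 10 without saline 3. Saline 2, which had the lowest endothelial sum of the saline libraries, took the count to 29 when left out.

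Most macrophage genes rose in the pooled contrast, but the exposed groups lay far apart. Of 18 markers of monocyte-derived and lipid-associated macrophages, 15 were called higher and none lower (83.3%, against 4.82% of all tested genes), and none of the 15 met the shared rule. Gpnmb, a glycoprotein of lipid-laden macrophages, had 6.39, 10.1 and 5.95 CPM with gefitinib, 265, 316 and 182 CPM with both agents and 1.88, 1.42 and 1.38 CPM with saline. Cd68, a lysosomal membrane protein, had 12.9, 20.03 and 12 CPM with gefitinib, 46.2, 59.1 and 57.6 CPM with both agents and 7.65, 7.25 and 7.56 CPM with saline. For both genes no exposed value overlapped saline, and every combined value was above every gefitinib value. Lyz2, the lysozyme of myeloid cells, had 32.5, 61.2 and 27.5 CPM with gefitinib and 230.5, 327 and 226 CPM with both agents, against 28.8, 22.7 and 22.3 CPM with saline, so gefitinib 3 overlapped saline. The count of 15 became 1 without the 4 libraries with muscle transcripts and 2 with the exposed libraries as 1 group. A difference between combined and gefitinib was called for 13 of the 18 markers, all higher with both agents. The markers summed to 732 to 855 CPM with gefitinib, 2355 to 2638 CPM with both agents and 459 to 609 CPM with saline. Spp1 was not called, at 26.8 ± 12.2 CPM with gefitinib, 38.3 ± 15.3 CPM with both agents and 29 ± 7.71 CPM with saline (SD, n = 3 each).

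Markers of resident Kupffer cells showed no such rise, with 1 of 16 called higher (Marco, a scavenger receptor) and 1 lower (Slc40a1, the iron exporter ferroportin). That is 6.25% each, against 4.82% and 4.68% of all tested genes. The Kupffer cell markers summed to 605 to 714 CPM with gefitinib, 565 to 865 CPM with both agents and 528 to 688 CPM with saline. Of 13 neutrophil markers, 7 were called higher (53.8%). The 13 markers summed to 76.3 to 122 CPM with gefitinib, 464 to 816 CPM with both agents and 9.74 to 25.8 CPM with saline. Lcn2, which is also counted among the acute phase proteins below, made up most of that sum in each group by its mean. The sum is therefore mainly that of 1 gene. The neutrophil marker that met the shared rule was Csf3r, the receptor for granulocyte colony-stimulating factor. Csf3r had 3.89, 5.36 and 5.04 CPM with gefitinib, 5.98, 5.54 and 7.71 CPM with both agents and 1.91, 3.0 and 2.02 CPM with saline. Csf3r rose by 1.26 ± 0.23 (SE) on the log2 scale, with an edgeR adjusted p of 0.00911. Neutrophil calls fell to 3 without gefitinib 2, gefitinib 3, saline 1 or saline 3, to 4 without saline 2 and to 1 without the 4 libraries with muscle transcripts. None of 17 T and NK cell markers was called by edgeR or DESeq2, or had an unadjusted p under 0.05. None of 12 B and plasma cell markers was called by edgeR, where 2 had an unadjusted p under 0.05, and 1 was called higher by DESeq2. Stellate cell and fibroblast markers were split, with 3 of 18 called higher and 5 lower (16.7% and 27.8%, against 4.82% and 4.68% of all tested genes). Ngfr, a surface receptor of stellate cells, had 1.64, 1.68 and 1.47 CPM with gefitinib, 2.38, 1.24 and 1.37 CPM with both agents and 5.08, 3.06 and 4.42 CPM with saline. Ngfr fell by 1.36 ± 0.26 (SE) on the log2 scale, with an edgeR adjusted p of 0.0129. Rgs5, a pericyte gene, averaged 35 ± 7.62 CPM with gefitinib, 30.9 ± 3.08 CPM with both agents and 53.9 ± 4.66 CPM with saline (SD, n = 3 each) and fell 1.64-fold (pooled log2 fold change −0.71 ± 0.13 (SE), edgeR adjusted p = 0.00974). The collagen gene Col1a1, by contrast, averaged 7.68 ± 1.61 CPM with gefitinib, 55.6 ± 14.1 CPM with both agents and 5.6 ± 0.801 CPM with saline. Calls were lost, with the edgeR adjusted p in brackets, without saline 1 for Ngfr (0.0571).

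**Figure D3:**
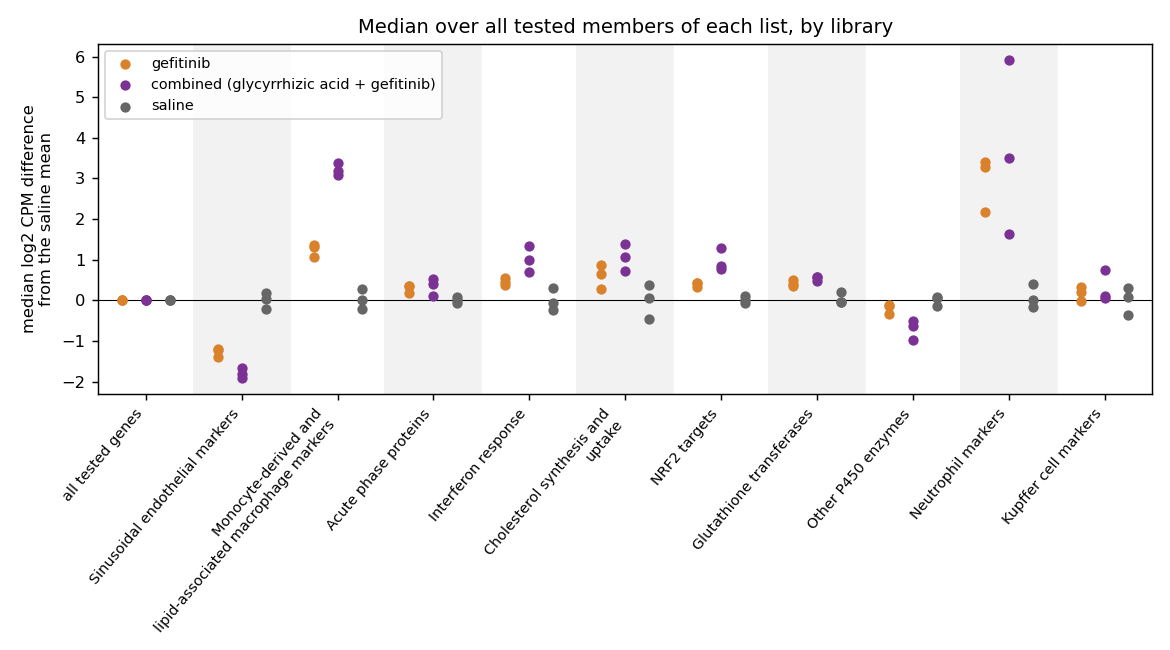
Median over all tested members of each gene list of the log2 CPM difference from the saline mean, with 1 point per library and gefitinib left, combined in the middle and saline right within each list. The endothelial list lies between 1.19 and 1.91 log2 units under saline in the 6 exposed libraries, the macrophage list lies higher with both agents than with gefitinib, and all tested genes lie near 0.

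Part of the enzymes that conjugate reactive compounds rose. Of 22 tested glutathione transferases, 9 were called higher and none lower by edgeR (40.9% higher, against 4.82% of all tested genes; 9 and 1 by DESeq2), with a median log2 fold change of 0.44. The 3 that met the shared rule were Mgst3, Gsta4 and Gstm5. Mgst3, a microsomal member, had 16.6, 18.8 and 21.2 CPM with gefitinib, 29, 23.6 and 21.8 CPM with both agents and 9.37, 9.13 and 11 CPM with saline. Mgst3 rose by 1.14 ± 0.14 (SE) on the log2 scale, with an edgeR adjusted p of 0.00159. Gsta4, which conjugates lipid aldehydes, had 65, 70.9 and 78 CPM with gefitinib, 102, 91.6 and 80.5 CPM with both agents and 51.4, 63.2 and 49.1 CPM with saline. Gsta4 rose by 0.56 ± 0.12 (SE) on the log2 scale, with an edgeR adjusted p of 0.0162. Gstm5, a mu class member, had 12.1, 16.5 and 13.5 CPM with gefitinib, 13.3, 12.8 and 17.9 CPM with both agents and 10.1, 8.13 and 9.52 CPM with saline. Gstm5 rose by 0.63 ± 0.16 (SE) on the log2 scale, with an edgeR adjusted p of 0.033. Their exposed and saline values did not overlap, and Gsta4 came closest, with gefitinib 1 at 65.0 CPM and saline 2 at 63.2 CPM. The larger rises lay beyond the limit. Gsta1 had 13.8, 79.6 and 34.7 CPM with gefitinib, 254, 156 and 122 CPM with both agents and 0.947, 2.38 and 1.9 CPM with saline. Gstm3 had 116, 332 and 331 CPM with gefitinib, 2300.1, 1086 and 1308 CPM with both agents and 36.1, 59.6 and 24.1 CPM with saline. The abundant Gstm1 averaged 3192 ± 1062 CPM with gefitinib, 6171 ± 1853 CPM with both agents and 1171 ± 248 CPM with saline (SD, n = 3 each). Members of these classes have near-identical copies, so reads can have been split between them. The count of 9 became 2 without the 4 libraries with muscle transcripts. By edgeR adjusted p, calls were lost without saline 1 for Gsta4 (0.0685) and without saline 3 for Gsta4 (0.0728). The Gstm5 call was lost without gefitinib 2, gefitinib 3, combined 3, saline 1, saline 2 or saline 3 (edgeR adjusted p between 0.0524 and 0.13).

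Targets of NRF2, the transcription factor of the response to electrophiles, followed the same order. Of 25 members, 15 were called higher and none lower (60% higher, against 4.82% of all tested genes). The median log2 fold changes were 0.65 pooled, 0.43 for gefitinib and 0.93 for the combined group. Those within the shared rule were of modest size. Fth1, the heavy chain of ferritin, had 1941, 1985 and 2001 CPM with gefitinib, 2605, 2498 and 2322 CPM with both agents and 1362, 1451 and 1595 CPM with saline. Fth1 rose by 0.59 ± 0.09 (SE) on the log2 scale, with an edgeR adjusted p of 0.00537. Htatip2, an oxidoreductase, had 117, 105 and 108 CPM with gefitinib, 161, 95 and 114 CPM with both agents and 67.9, 61 and 76.9 CPM with saline. Htatip2 rose by 0.76 ± 0.16 (SE) on the log2 scale, with an edgeR adjusted p of 0.0168. Tkt, transketolase of the pentose phosphate pathway, had 115, 109 and 131 CPM with gefitinib, 151, 135 and 155 CPM with both agents and 96.7, 94.4 and 68.6 CPM with saline. Tkt rose by 0.61 ± 0.13 (SE) on the log2 scale, with an edgeR adjusted p of 0.0168. For Fth1 the log2 difference of combined from gefitinib was 0.33 (95% interval 0.09 to 0.56). It was 0.16 (−0.23 to 0.56) for Htatip2 and 0.31 (−0.01 to 0.63) for Tkt. Txn1 and Taldo1 rose 1.49-fold and 1.45-fold. Nqo1, the quinone reductase, averaged 6.11 ± 1.76 CPM with gefitinib, 18.8 ± 7.42 CPM with both agents and 3.15 ± 0.322 CPM with saline (SD, n = 3 each). The cystine carrier Slc7a11 was at 0.0360, 0.266 and 0.175 CPM with gefitinib and 19.9, 4.0 and 4.45 CPM with both agents, against 0.0715, 0 and 0.168 CPM with saline. The count of 15 became 9 without saline 2, 10 without saline 1 or saline 3 and 0 without the 4 libraries with muscle transcripts (8 at an unadjusted p under 0.05). The edgeR adjusted p passed 0.05 without saline 1 for Htatip2 (0.0598) and without saline 2 for Htatip2 (0.0817).

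The antioxidant response element, the DNA motif that NRF2 binds, was looked for in the 250 bases before the gene start (RefSeq, GRCm38.p6) as TGACNNNGC on both strands, and was present in 13.7% of the 12157 tested genes with a promoter in the table. It was present in 13.8% of the higher and 13.5% of the lower genes that met the shared rule and were called. Among called members it was present in 4 of 14 NRF2 targets and in 1 of 8 glutathione transferases. A match is a description of letters and not a site. A gene with several RefSeq starts was counted if any of its windows held the motif. Gstm5 and Htatip2 are printed because both met the shared rule and hold the motif, which is in capitals, starting 42 and 49 bases before a RefSeq gene start. The printed Htatip2 window lies past the start of that gene in the deposited table (49759115). The window of another Htatip2 start (chr7:49758856-49759105) lacks this motif and holds the sterol response element core described below.
Gstm5, chr3:107895604-107895853, plus strand: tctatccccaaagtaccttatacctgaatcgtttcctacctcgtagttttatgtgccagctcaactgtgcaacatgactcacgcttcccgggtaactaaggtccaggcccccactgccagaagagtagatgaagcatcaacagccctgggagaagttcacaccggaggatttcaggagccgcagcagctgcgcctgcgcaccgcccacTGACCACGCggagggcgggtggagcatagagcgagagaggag
Htatip2, chr7:49759262-49759511, plus strand: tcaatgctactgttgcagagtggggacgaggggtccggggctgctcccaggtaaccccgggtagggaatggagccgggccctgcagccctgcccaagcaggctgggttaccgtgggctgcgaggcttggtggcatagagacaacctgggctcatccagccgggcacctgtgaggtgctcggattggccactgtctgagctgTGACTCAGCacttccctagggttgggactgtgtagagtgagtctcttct

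Among targets of the drug-sensing receptors CAR and PXR, 6 of 27 were called higher and 1 lower (22.2% and 3.7%, against 4.82% and 4.68% of all tested genes). Slco1a4, an uptake carrier of bile acids and drugs, had 179, 232 and 182 CPM with gefitinib, 199, 95.8 and 127 CPM with both agents and 72.9, 35.5 and 58 CPM with saline. Slco1a4 rose 3.01-fold (pooled log2 fold change 1.59 ± 0.28 (SE), edgeR adjusted p = 0.00832). Its gefitinib mean was the higher of the exposed means, with a log2 difference of combined from gefitinib of −0.49 (95% interval −1.15 to 0.17). Ephx1, microsomal epoxide hydrolase, had 653, 693 and 692 CPM with gefitinib, 557, 625 and 610.5 CPM with both agents and 513, 398 and 375 CPM with saline. Ephx1 rose by 0.57 ± 0.12 (SE) on the log2 scale, with an edgeR adjusted p of 0.0145. Cyp2a5 rose beyond the limit, with 853 ± 261 CPM with gefitinib, 2196 ± 788 CPM with both agents and 103 ± 102 CPM with saline (SD, n = 3 each). The standard targets Cyp2b10 and Cyp3a11 were not called, at a pooled log2 fold change of 0.83 (edgeR adjusted p = 0.407) and 0.07 (0.825). Higher calls in the list numbered 4 without saline 2 and 0 without the 4 libraries with muscle transcripts (6 at an unadjusted p under 0.05). Single libraries decided some calls, with the edgeR adjusted p in brackets, without saline 2 for Ephx1 (0.0693) and without saline 3 for Ephx1 (0.0604).

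The other P450 enzymes leaned the opposite way, with 14 of 37 called lower and 2 higher (37.8% lower, against 4.68%) and a median log2 fold change of −0.44. Cyp4v3, a fatty acid hydroxylase, had 279, 257 and 267 CPM with gefitinib, 193, 244 and 232 CPM with both agents and 389, 473 and 414 CPM with saline. Cyp4v3 fell by 0.80 ± 0.10 (SE) on the log2 scale, with an edgeR adjusted p of 0.00204. Cyp2d26 had 548, 433 and 444 CPM with gefitinib, 369, 426 and 364 CPM with both agents and 695, 732 and 671 CPM with saline. Cyp2d26 fell by 0.71 ± 0.10 (SE) on the log2 scale, with an edgeR adjusted p of 0.00365. Cyp2d40 had 13.3, 9.44 and 10.6 CPM with gefitinib, 6.48, 8.25 and 12.9 CPM with both agents and 30.9, 30.4 and 21.9 CPM with saline. Cyp2d40 fell by 1.45 ± 0.21 (SE) on the log2 scale, with an edgeR adjusted p of 0.00335. In these 3 genes the exposed values did not overlap the saline values. For Cyp4v3 and Cyp2d26 every combined value also lay under every gefitinib value, while for Cyp2d40 the gefitinib and combined values overlapped. The log2 difference of combined from gefitinib was −0.26 (interval −0.53 to 0.01) for Cyp4v3 and −0.30 (interval −0.57 to −0.03) for Cyp2d26. It was −0.27 (interval −0.83 to 0.29) for Cyp2d40, and none of these differences was called. Cyp2c69 had 3.69, 5.11 and 5.09 CPM with gefitinib and 2.71, 6.0 and 1.07 CPM with both agents, against 53.1, 14.2 and 11.6 CPM with saline. Cyp2c40 had 34.5, 32 and 26.4 CPM with gefitinib and 25.3, 29.97 and 35.9 CPM with both agents, against 284, 50.1 and 63.9 CPM with saline. In both genes saline 1 was far above saline 2 and saline 3. Their pooled log2 fold changes were −2.76 (edgeR adjusted p = 0.013) and −2.11 (0.0176). Without saline 1 they were −1.73 (edgeR adjusted p = 0.0615) and −0.89 (0.0152), so the sizes rest on that library. Cyp2c40 was not called by limma on log2(FPKM + 1) (adjusted p = 0.0804) or log2(FPKM + 0.1) (0.0729). Cyp2c and Cyp2d genes are close paralogs, so reads can have been split between them. The count of 14 became 7 without saline 1, 9 without gefitinib 2, saline 2 or saline 3 and 0 without the 4 libraries with muscle transcripts (10 at an unadjusted p under 0.05).

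Bile acid genes were lower in 8 of 29 and higher in 1 (27.6% and 3.45%, against 4.68% and 4.82% of all tested genes). Slco1b2, the carrier that brings bile acids and drugs into hepatocytes from the sinusoid, met the shared rule and had 708, 587 and 689.8 CPM with gefitinib, 369.6, 557 and 426 CPM with both agents and 885, 1018 and 811 CPM with saline. Slco1b2 fell by 0.73 ± 0.14 (SE) on the log2 scale, with an edgeR adjusted p of 0.0116. Cyp7a1, the first and limiting enzyme of the pathway, was the gene called higher. Its values were 189, 384 and 175 CPM with gefitinib, 78.8, 76.9 and 47.3 CPM with both agents and 60.9, 27.2 and 47.7 CPM with saline, and only its gefitinib values stood clear of saline. The count of 8 became 1 without saline 2, 2 without gefitinib 2 or saline 3, 5 without gefitinib 3, combined 1 or saline 1 and 0 without the 4 libraries with muscle transcripts (5 at an unadjusted p under 0.05). Among UDP-glucuronosyltransferases and sulfotransferases 5 of 23 were lower and 2 higher (21.7% and 8.7%, against 4.68% and 4.82% of all tested genes). Ugt2b1 was within the shared rule at 470.4 ± 77.6 CPM with gefitinib, 368 ± 5.94 CPM with both agents and 679.8 ± 111 CPM with saline (SD, n = 3 each; pooled log2 fold change −0.71 ± 0.13 (SE), edgeR adjusted p = 0.01). Calls were lost, with the edgeR adjusted p in brackets, without saline 2 for Slco1b2 (0.058).

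**Figure D4:**
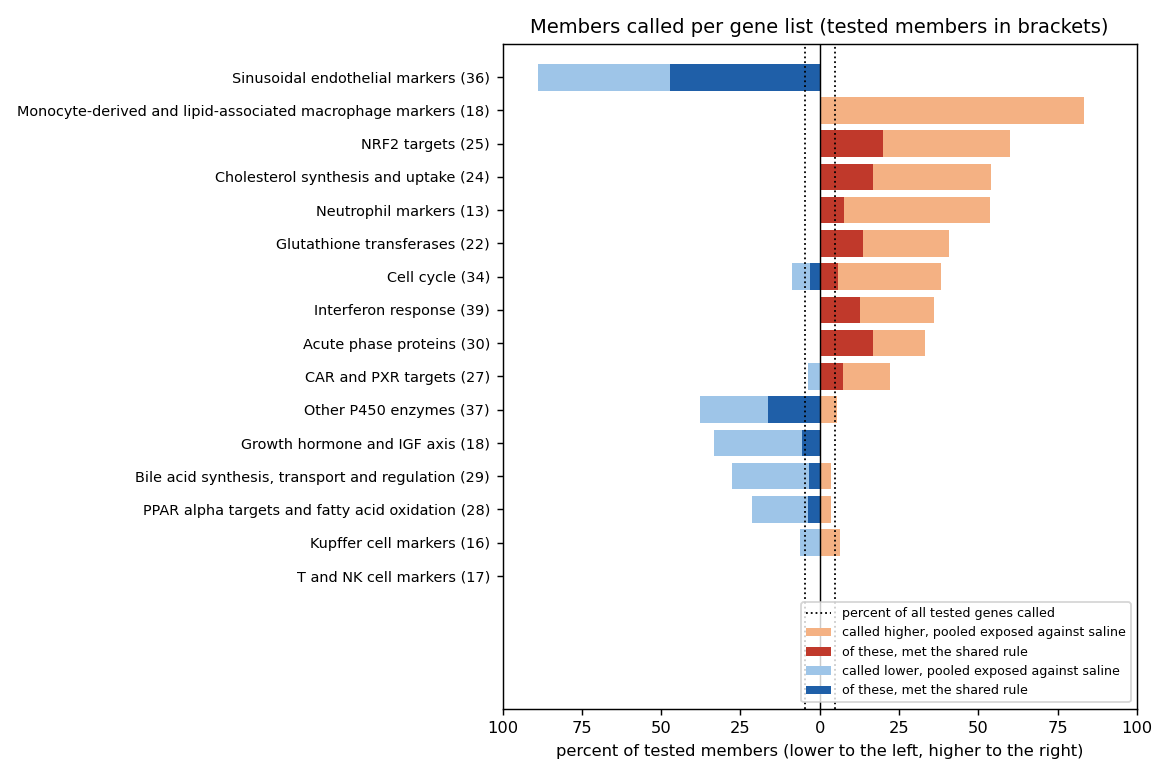
Percent of tested members of each gene list called higher (right) or lower (left) in the pooled contrast of exposed with saline livers, with the part that met the shared rule in the darker colour and dotted lines at the percent over all tested genes. The endothelial list reaches 88.9% lower, the macrophage list reaches 83.3% higher with no shared part, and the T and NK cell list has no call. The lists were chosen with earlier results of these data known.

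Part of the cholesterol synthesis and uptake genes rose. Of 24 tested genes, 13 were called higher and none lower (54.2%, against 4.82%), with median log2 fold changes of 0.83 pooled, 0.57 for gefitinib and 1.04 for the combined group. Mvd, a mevalonate pathway enzyme, had 8.95, 5.71 and 10.3 CPM with gefitinib, 7.85, 12.5 and 16.6 CPM with both agents and 4.81, 3.83 and 2.63 CPM with saline. Mvd rose by 1.43 ± 0.30 (SE) on the log2 scale, with an edgeR adjusted p of 0.0175. Its log2 difference of combined from gefitinib was 0.57 (95% interval −0.15 to 1.29). Srebf2, which encodes the transcription factor that drives the pathway, had 47.7, 43.5 and 50.05 CPM with gefitinib, 54.6, 62 and 73.7 CPM with both agents and 35, 43 and 32.8 CPM with saline. Srebf2 rose by 0.56 ± 0.12 (SE) on the log2 scale, with an edgeR adjusted p of 0.02. For Srebf2 the log2 difference of combined from gefitinib was 0.43 (95% interval 0.12 to 0.74). In both genes exposed and saline values did not overlap, although gefitinib 2 and saline 2 of Srebf2 were 43.5 and 43.0 CPM.

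Sqle, an enzyme of sterol synthesis, rose beyond the 1.5-fold limit. Sqle averaged 22.1 ± 11 CPM with gefitinib, 58.9 ± 14.5 CPM with both agents and 8.82 ± 7.56 CPM with saline (SD, n = 3 each). The saline libraries differed among themselves over this list, with medians 0.38 above, 0.05 above and 0.47 below the saline mean for saline 1, 2 and 3. The count of 13 became 3 without saline 2 or saline 3, 6 without gefitinib 3, combined 2 or combined 3, 8 without gefitinib 1 and 0 without the 4 libraries with muscle transcripts (5 at an unadjusted p under 0.05). By edgeR adjusted p, calls were lost without saline 1 for Srebf2 (0.0762), without saline 2 for Mvd (0.0688) and without saline 3 for Srebf2 (0.0861) and Mvd (0.0683).

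The sterol response element, which the product of Srebf2 binds, was looked for as TCACNCCA in the same windows, a search added after the values were seen, and was present in 4.1% of the 12157 promoters. It can overlap the antioxidant motif by the letters TGA. It was held by 3 of the 16 tested cholesterol genes that had a promoter sequence, Hmgcs1, Msmo1 and Srebf2. Of these, Msmo1 and Srebf2 were called higher. The motif was not particular to that list, since it was held by 7 of 22 NRF2 targets (31.8%). It was held by 3.54% of the higher and 3.91% of the lower genes that met the shared rule and were called. Both are printed, Srebf2 as a shared gene and Msmo1 as a called gene beyond the limit (65.5 ± 24 CPM with gefitinib, 114 ± 31.7 CPM with both agents and 32.5 ± 19 CPM with saline, SD, n = 3 each), with the motif in capitals, starting 162 and 177 bases before the gene start.
Srebf2, chr15:82147019-82147268, plus strand: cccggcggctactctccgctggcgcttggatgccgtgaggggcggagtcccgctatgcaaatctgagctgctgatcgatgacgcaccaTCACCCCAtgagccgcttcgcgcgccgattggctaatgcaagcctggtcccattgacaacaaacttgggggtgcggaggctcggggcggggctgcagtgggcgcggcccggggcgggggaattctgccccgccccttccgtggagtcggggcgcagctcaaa
Msmo1, chr8:64733579-64733828, minus strand: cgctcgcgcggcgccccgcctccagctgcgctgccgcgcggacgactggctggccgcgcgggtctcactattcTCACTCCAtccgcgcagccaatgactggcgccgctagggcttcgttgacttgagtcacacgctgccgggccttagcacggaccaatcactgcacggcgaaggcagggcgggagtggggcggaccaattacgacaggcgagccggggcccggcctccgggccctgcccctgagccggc

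Other lipid genes gave few shared changes. Elovl6, an elongase of fatty acids, had 18.4, 19 and 26.3 CPM with gefitinib, 17.4, 19.96 and 20.4 CPM with both agents and 9.06, 8.75 and 5.63 CPM with saline. Elovl6 rose by 1.37 ± 0.19 (SE) on the log2 scale, with an edgeR adjusted p of 0.00268, while Fasn and Srebf1 were not called (edgeR adjusted p = 0.0741 and 0.653). In all, 3 of 24 fatty acid and triglyceride synthesis genes were called higher and 2 lower (12.5% and 8.33%, against 4.82% and 4.68% of all tested genes). Pnpla2, adipose triglyceride lipase, had 104, 135 and 113 CPM with gefitinib, 97, 92.1 and 127 CPM with both agents and 74.8, 82.6 and 76.6 CPM with saline. Pnpla2 rose by 0.51 ± 0.13 (SE) on the log2 scale, with an edgeR adjusted p of 0.0337. Of 16 lipid droplet and lipase genes, 3 were called in each direction (18.8% each), with Pnpla2 and Lipc within the shared rule. Lipc, hepatic lipase, averaged 182 ± 18.7 CPM with gefitinib, 154 ± 17.4 CPM with both agents and 241 ± 16.7 CPM with saline (SD, n = 3 each; pooled log2 fold change −0.53 ± 0.10 (SE), edgeR adjusted p = 0.0132). Of 28 PPARα targets 6 were called lower and 1 higher (21.4% lower, against 4.68% of all tested genes), with Acot1, a thioesterase, within the shared rule. Acot1 had 22.9, 22.4 and 17 CPM with gefitinib, 10.1, 35.6 and 17.2 CPM with both agents and 49.5, 45.5 and 87.6 CPM with saline. Acot1 fell by 1.55 ± 0.34 (SE) on the log2 scale, with an edgeR adjusted p of 0.0203. That count of 6 became 1 without combined 3 or saline 3, 2 without gefitinib 2, gefitinib 3, combined 1, saline 1 or saline 2, 4 without gefitinib 1 and 0 without the 4 libraries with muscle transcripts (5 at an unadjusted p under 0.05). The edgeR adjusted p passed 0.05 without saline 1 for Lipc (0.0557), without saline 2 for Lipc (0.0545) and without saline 3 for Acot1 (0.0947). The Pnpla2 call was lost without gefitinib 2, gefitinib 3, saline 1, saline 2 or saline 3 (edgeR adjusted p between 0.0588 and 0.111).

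Plasma proteins of the acute phase, which hepatocytes secrete during inflammation, rose in part. Of 30 tested members, 10 were called higher and none lower by edgeR (33.3% higher, against 4.82% of all tested genes; 12 and 2 by DESeq2). The median log2 fold change was 0.25, and 5 of the called members met the shared rule. Hp, haptoglobin, had 5878, 6775 and 6469 CPM with gefitinib, 6315, 7078 and 7093 CPM with both agents and 3655, 3097 and 3985 CPM with saline. Hp rose 1.84-fold (pooled log2 fold change 0.88 ± 0.11 (SE), edgeR adjusted p = 0.00213), with a log2 difference of combined from gefitinib of 0.10 (95% interval −0.18 to 0.38). Hpx, hemopexin, had 4656, 6869.8 and 6916 CPM with gefitinib, 8874, 7221 and 9606 CPM with both agents and 3251, 2636 and 3392 CPM with saline. Hpx rose 2.35-fold (pooled log2 fold change 1.23 ± 0.17 (SE), edgeR adjusted p = 0.00268). Its log2 difference of combined from gefitinib was 0.48 (95% interval 0.07 to 0.89). Both proteins bind products of red cell breakdown. Saa1, a serum amyloid A protein, had 166, 196 and 316 CPM with gefitinib, 230.3, 302 and 406 CPM with both agents and 52.9, 111 and 103 CPM with saline. Saa1 rose by 1.58 ± 0.30 (SE) on the log2 scale, with an edgeR adjusted p of 0.0123. Apcs, serum amyloid P, had 599, 339 and 444 CPM with gefitinib, 429, 529.99 and 648 CPM with both agents and 300.1, 109.7 and 135 CPM with saline. Apcs rose by 1.45 ± 0.33 (SE) on the log2 scale, with an edgeR adjusted p of 0.0239. Orm1, orosomucoid, averaged 915 ± 41.1 CPM with gefitinib, 949 ± 87.1 CPM with both agents and 601 ± 112 CPM with saline (SD, n = 3 each; pooled log2 fold change 0.63 ± 0.13 (SE), edgeR adjusted p = 0.0143). Each of the 5 had all exposed values above all saline values. Saa2 and Lcn2 rose beyond the limit. Saa2 averaged 82.4 ± 23.1 CPM with gefitinib, 135 ± 47.8 CPM with both agents and 14.3 ± 7.19 CPM with saline, and Lcn2 averaged 70.7 ± 13.6 CPM with gefitinib, 609 ± 163 CPM with both agents and 11.4 ± 7.39 CPM with saline. Saa1 and Saa2, and the Orm genes, are close copies. The count of 10 became 0 without the 4 libraries with muscle transcripts (11 at an unadjusted p under 0.05). Single libraries decided some calls, with the edgeR adjusted p in brackets, without saline 2 for Apcs (0.087) and without saline 3 for Apcs (0.0947).

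Of 39 interferon response genes, 14 were called higher and none lower by edgeR (35.9% higher, against 4.82% of all tested genes; 20 and 1 by DESeq2). The median log2 fold changes were 0.72 pooled, 0.42 for gefitinib and 1.00 for the combined group. Apart from Zbp1, the shared members rose by small amounts. Igtp, a GTPase induced by interferon gamma, had 61.3, 62.1 and 58.1 CPM with gefitinib, 77.9, 54.7 and 55.8 CPM with both agents and 40.6, 22.3 and 26.6 CPM with saline. Igtp rose by 1.05 ± 0.19 (SE) on the log2 scale, with an edgeR adjusted p of 0.00999. Its interval overlaps that of Irgm2 on the same strand. Ifih1, a sensor of double-stranded RNA, had 21.8, 19.1 and 21.2 CPM with gefitinib, 22.7, 24.5 and 19.3 CPM with both agents and 16.3, 13.9 and 11.2 CPM with saline. Ifih1 rose by 0.63 ± 0.14 (SE) on the log2 scale, with an edgeR adjusted p of 0.0189. Irf9, a transcription factor of the pathway, rose 1.39-fold (pooled log2 fold change 0.48 ± 0.12 (SE), edgeR adjusted p = 0.0301). Irf7 showed a wider spread between the exposed groups, with 38.4 ± 11.1 CPM with gefitinib, 109.8 ± 44.9 CPM with both agents and 18.1 ± 4.98 CPM with saline (SD, n = 3 each). The count of 14 became 6 without saline 2, 8 without saline 3 and 0 without the 4 libraries with muscle transcripts (19 at an unadjusted p under 0.05). Calls were lost, with the edgeR adjusted p in brackets, without saline 2 for Ifih1 (0.0693) and without saline 3 for Ifih1 (0.0647).

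**Figure D5:**
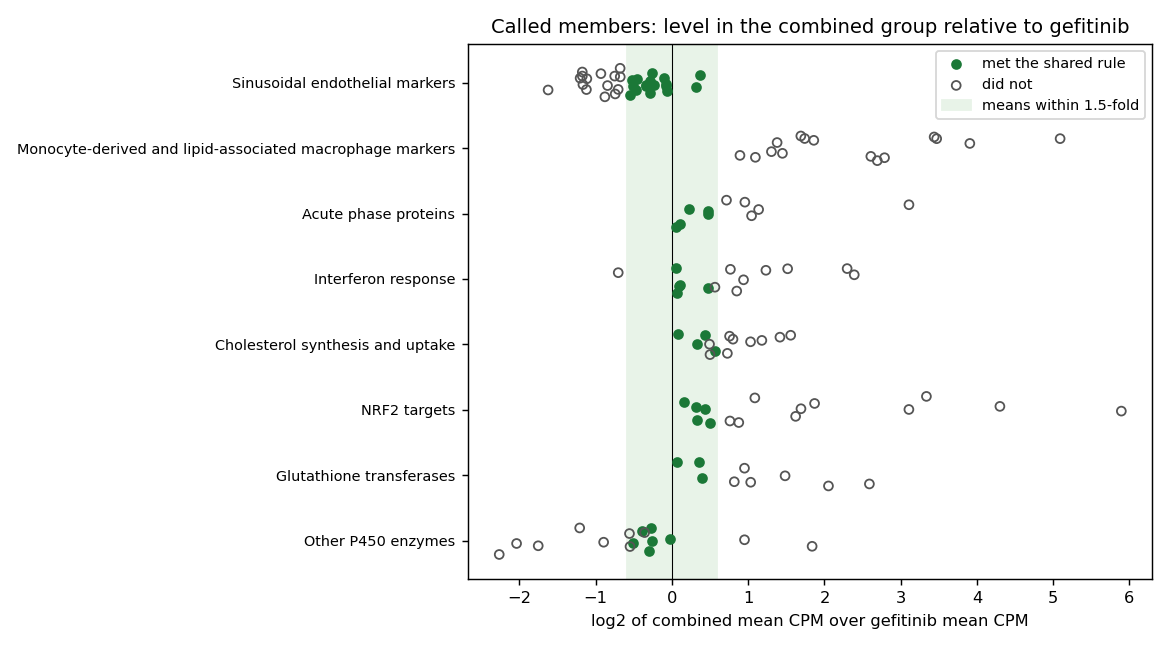
Log2 of the combined over the gefitinib mean CPM for members called in the pooled contrast, with 1 point per gene, filled where the shared rule was met, and the band of 1.5-fold shaded; points are spread vertically for legibility. All called macrophage genes lie right of the band, and the endothelial genes lie in the band or left of it.

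Clock and hormone-linked regulators gave small shared falls. Clock, a core activator of the circadian clock, had 27.4, 28.4 and 32 CPM with gefitinib, 33.5, 33.7 and 27.1 CPM with both agents and 40.7, 49.1 and 42.5 CPM with saline. Clock fell by 0.54 ± 0.10 (SE) on the log2 scale, with an edgeR adjusted p of 0.0126. Rora, a nuclear receptor that activates clock genes, had 33.5, 33.3 and 37.9 CPM with gefitinib, 41.9, 40.4 and 45.2 CPM with both agents and 50.7, 61.9 and 51.1 CPM with saline. Rora fell by 0.50 ± 0.09 (SE) on the log2 scale, with an edgeR adjusted p of 0.0101. In all, 5 of 21 clock genes were called lower and 1 higher (23.8% and 4.76%, against 4.68% and 4.82% of all tested genes). The time of day at collection was not given in the sources used here. Klf9, a target of the glucocorticoid receptor, averaged 89 ± 9.16 CPM with gefitinib, 94.1 ± 11.4 CPM with both agents and 123 ± 6.88 CPM with saline (SD, n = 3 each; pooled log2 fold change −0.42 ± 0.10 (SE), edgeR adjusted p = 0.0293). Of 22 glucocorticoid response genes, 2 were called lower and none higher by edgeR (9.09% lower; 4 and 0 by DESeq2; 5 and 3 at an unadjusted p under 0.05). The exposed groups lay on opposite sides of saline over this list, with median log2 fold changes of −0.60 for gefitinib and 0.66 for the combined group, and 10 of the 22 were called higher with both agents than with gefitinib. So the shared fall of Klf9 does not stand for the list. Stat5b, which carries growth hormone signals in liver, averaged 46.8 ± 6.81 CPM with gefitinib, 40.1 ± 2.78 CPM with both agents and 62.8 ± 9.45 CPM with saline (pooled log2 fold change −0.53 ± 0.12 (SE), edgeR adjusted p = 0.0201). In the growth hormone and IGF axis 6 of 18 genes were called lower and none higher (33.3% lower, against 4.68% of all tested genes). Igf1 was not among them, at a pooled log2 fold change of −0.36 (edgeR adjusted p = 0.22). By edgeR adjusted p, calls were lost without saline 2 for Clock (0.064), Stat5b (0.0987) and Rora (0.0512). The Klf9 call was lost without gefitinib 1, gefitinib 3, combined 1, combined 2, saline 1, saline 2 or saline 3 (edgeR adjusted p between 0.0507 and 0.109).

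Cell cycle genes were called higher in 13 of 34 and lower in 3 (38.2% and 8.82%, against 4.82% and 4.68% of all tested genes). The median log2 fold change was 1.06, and few of these genes met the shared rule. Ccne1, the cyclin of S phase entry, had 3.76, 2.6 and 2.61 CPM with gefitinib, 2.79, 2.4 and 2.12 CPM with both agents and 1.45, 1.04 and 0.504 CPM with saline. Ccne1 rose by 1.43 ± 0.35 (SE) on the log2 scale, with an edgeR adjusted p of 0.031. Cdt1, a licensing factor of replication origins, had 3.04, 4.28 and 3.45 CPM with gefitinib, 4.55, 4.51 and 4.5 CPM with both agents and 2.5, 2.31 and 1.34 CPM with saline. Cdt1 rose by 0.97 ± 0.24 (SE) on the log2 scale, with an edgeR adjusted p of 0.0337. Ccnd2, a D-type cyclin, had 3.39, 4.35 and 2.54 CPM with gefitinib, 3.67, 2.5 and 3.34 CPM with both agents and 6.02, 5.73 and 6.77 CPM with saline. Ccnd2 fell by 0.91 ± 0.21 (SE) on the log2 scale, with an edgeR adjusted p of 0.024. The count of 13 became 4 without saline 2 or saline 3, 8 without gefitinib 2 or gefitinib 3 and 0 without the 4 libraries with muscle transcripts (11 at an unadjusted p under 0.05). The edgeR adjusted p passed 0.05 without saline 1 for Ccnd2 (0.0663), without saline 2 for Ccnd2 (0.0665) and without saline 3 for Ccnd2 (0.092). The Ccne1 call was lost without gefitinib 1, gefitinib 2, gefitinib 3, combined 1, combined 2, saline 2 or saline 3 (edgeR adjusted p between 0.0511 and 0.0969). The Cdt1 call was lost without gefitinib 2, gefitinib 3, combined 1, combined 2, combined 3, saline 2 or saline 3 (edgeR adjusted p between 0.0588 and 0.0931).

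In iron and BMP signalling, 2 of 25 genes were called higher and 6 lower (8% and 24%, against 4.82% and 4.68% of all tested genes). Bmp2 and Eng, among the 6, are also counted in the endothelial list. Besides Fth1, the higher one was Hfe, which takes part in iron sensing by hepatocytes. Hfe had 48.4, 51.8 and 46.1 CPM with gefitinib, 35.8, 34.5 and 43.2 CPM with both agents and 28.7, 27.1 and 31.3 CPM with saline. Hfe rose by 0.57 ± 0.10 (SE) on the log2 scale, with an edgeR adjusted p of 0.00863. The gefitinib values were all above the combined values. Hamp, which encodes hepcidin, varied widely within groups, at 670.1, 80.1 and 414 CPM with gefitinib, 37.2, 58.3 and 176 CPM with both agents and 574, 351 and 241 CPM with saline, and was not called (edgeR adjusted p = 0.323). Anxa4, an annexin of bile duct cells, was the 1 of 10 cholangiocyte markers called higher (10%, against 4.82% of all tested genes). Anxa4 had 52.9, 53.9 and 49.7 CPM with gefitinib, 70.7, 69.6 and 67.7 CPM with both agents and 45.4, 42.8 and 40.7 CPM with saline. Anxa4 rose by 0.48 ± 0.07 (SE) on the log2 scale, with an edgeR adjusted p of 0.00456. Its log2 difference of combined from gefitinib, 0.41 (95% interval 0.22 to 0.60), was itself called (edgeR adjusted p = 0.0164). Serpina1c, an antitrypsin gene with close copies, was the 1 of 16 hepatocyte markers called (6.25% lower, against 4.68% of all tested genes). It averaged 6820.1 ± 361 CPM with gefitinib, 4801 ± 801 CPM with both agents and 9039.9 ± 426 CPM with saline (SD, n = 3 each; pooled log2 fold change −0.66 ± 0.11 (SE), edgeR adjusted p = 0.00779). Its log2 difference of combined from gefitinib, −0.51 (95% interval −0.81 to −0.21), was itself called (edgeR adjusted p = 0.0442). Serpina1c was not called for gefitinib alone against saline (edgeR adjusted p = 0.208). Alb was not called in the pooled contrast (edgeR adjusted p = 0.621). In the urea cycle list 3 of 18 were lower and none higher (16.7% lower, against 4.68% of all tested genes). Slc25a13, the aspartate carrier of mitochondria, was within the shared rule at 169 ± 6.94 CPM with gefitinib, 124 ± 20.6 CPM with both agents and 196 ± 16.7 CPM with saline (pooled log2 fold change −0.43 ± 0.11 (SE), edgeR adjusted p = 0.0354). Its fall with gefitinib alone was 1.16-fold and was not called (edgeR adjusted p = 0.521). Its log2 difference of combined from gefitinib was −0.45 (95% interval −0.74 to −0.16). The Slc25a13 call was lost without gefitinib 1, gefitinib 2, gefitinib 3, combined 1, combined 3, saline 1, saline 2 or saline 3 (edgeR adjusted p between 0.0604 and 0.152).

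The remaining lists held no shared member that was called. Of 20 p53 targets, 4 were called higher by edgeR (20%, against 4.82% of all tested genes) and 10 by DESeq2. Their median log2 fold change was 0.00 for gefitinib and 0.92 for the combined group, and 10 of the 20 were called higher with both agents than with gefitinib. Of 18 gluconeogenesis and glycogen genes 4 were called lower (22.2%, against 4.68%). Of 26 genes of stress of the endoplasmic reticulum and amino acids 1 was called in each direction (3.85% each). Among 14 skeletal muscle markers 1, the skeletal actin Acta1, was called higher (7.14%, against 4.82% of all tested genes). All 14 had an unadjusted p under 0.05, 5 were called higher by DESeq2 and 11 were called higher in the combined group against saline. Among 8 red cell markers 1 was called lower (12.5%, against 4.68% of all tested genes). It was Alas2, which starts heme synthesis in red cell precursors. 

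The 1.5-fold limit cut through a continuous range. Just inside it were Aspa, Nup93 and Atp6v1b2, each with exposed means 1.49-fold apart, and just outside it were Pld4, Pgs1 and Abhd4, the last with means 1.51-fold apart. Atp6v1b2, a subunit of the lysosomal proton pump, averaged 39.8 ± 3.82 CPM with gefitinib, 59.1 ± 3.97 CPM with both agents and 33.5 ± 1.41 CPM with saline (SD, n = 3 each), and Nup93, a nucleoporin, averaged 5.76 ± 0.178 CPM with gefitinib, 8.6 ± 0.690 CPM with both agents and 3.52 ± 0.659 CPM with saline. Aspa, aspartoacylase, averaged 7.22 ± 0.558 CPM with gefitinib, 4.85 ± 1.47 CPM with both agents and 10.1 ± 0.887 CPM with saline. Outside the limit, Pld4 averaged 10.6 ± 0.0353 CPM with gefitinib, 15.9 ± 4.71 CPM with both agents and 7.51 ± 1.53 CPM with saline. Pgs1 averaged 15.5 ± 0.527 CPM with gefitinib, 23.4 ± 3.85 CPM with both agents and 12.1 ± 2.31 CPM with saline, and Abhd4 averaged 54.3 ± 3.13 CPM with gefitinib, 81.7 ± 16.2 CPM with both agents and 42.9 ± 2.26 CPM with saline. For Atp6v1b2 the difference of combined from gefitinib was itself called (edgeR adjusted p = 0.00853). Aspa was not called for gefitinib alone (edgeR adjusted p = 0.361). The pooled Aspa call was lost without gefitinib 2, gefitinib 3, saline 1, saline 2 or saline 3. The Pld4 call was lost without gefitinib 1, gefitinib 2, gefitinib 3, saline 1 or saline 2. Pgs1 lost its call without saline 1 or saline 2, and Abhd4 without saline 2. With a tighter limit, 205 higher and 234 lower genes met the rule and were called, and with a limit of 2-fold 418 and 480 did.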

How the data were processed

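RNA of mouse liver was sequenced from 9 libraries, 3 per group. The deposited gene table pairs, per the file headers, a count and an FPKM value for each of 27945 genes and each library. The counts are whole numbers that the authors did not normalise, and the deposited FPKM values were scaled by the authors to gene length and library. The genome build was GRCm38 (mm10), per the submitters' processing notes. No aligner, counter or strand setting is given in the sources used here. Libraries were made from total RNA with a SMARTER mRNA kit, per the labels' protocols.

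Counts were tested with edgeR 4.0.16 (R 4.3.3) after filterByExpr, which kept 18113 genes and left out 9832, with TMM scaling, 1 mean per group and 6 residual degrees of freedom. The pooled contrast was the mean of the gefitinib and combined groups minus saline, and p-values were adjusted by Benjamini-Hochberg over all tested genes. Intervals are 95% intervals of the fit. Alternatives were a replicate block, 2 groups in place of 3, other scalings and filters, DESeq2 1.42.0, limma 3.58.1 on log2(FPKM + 1) and log2(FPKM + 0.1), each library left out, and other limits of the shared rule. The shared members and the 34 gene lists were chosen with earlier results of these data known, and list counts were added to the alternatives after the data were seen. Named genes were the 12 largest shared rises and falls with a mean of at least 1 FPKM, up to 3 shared members per list by smallest p, Egfr, and 3 called genes on each side of the 1.5-fold limit. A few genes that this rule names are not reported here. Further genes are named as members of a list and were picked after their values were seen. On simulated data with 17500 genes, 50 of them changed at each fold and alike in both exposed groups, the pooled test recovered 18% of genes changed 1.5-fold, 60% of those changed 2-fold, 88% of those changed 4-fold and 96% of those changed 8-fold, and 7 of its 138 calls were false. Far fewer genes were changed there than were called in the data, which moves the p-value cut, so these rates do not carry over to the real contrast. No 2 libraries of a group agreed within sampling noise. Figures were drawn with matplotlib 3.10.9.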

Additional observations from a re-analysis of the deposited data

Results flagged for a closer look

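Among the 71 named genes, 7 had 1 exposed library far from the other 5, by Dixon's test of the gap to the nearest value at the 95% level. Chance flags about 1 in 20 groups of values, and the 6 libraries come from 2 groups. Combined 1 was the lowest library for Eng, at 16.3 CPM with the next value at 24.2 CPM. The same library was the highest for Htatip2, at 161 CPM with the next at 117 CPM, and for Igtp, at 77.9 CPM with the next at 62.1 CPM. Gefitinib 3 was the highest for Stat5b, at 54.7 CPM with the next at 43.1 CPM, and for Elovl6, at 26.3 CPM with the next at 20.4 CPM. Gefitinib 1 was the highest for Rgs5, at 43.6 CPM with the next at 33.4 CPM. Combined 3 was the highest for Pld4, at 21.3 CPM with the next at 13.5 CPM.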

How the results depend on the processing

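Replicate numbers did not pair the samples, since the deviations of same-numbered samples correlated at −0.08 to 0.07 over 9 pairs and those of other numbers at −0.06 to 0.06. A fit with the replicate block gave 609 higher and 532 lower calls, of which 200 and 251 met the shared rule. With the exposed libraries as 1 group, 96 genes were called higher and 144 lower, 62 and 103 of them shared. Library size scaling gave 1332 and 516 calls, 485 shared genes lower and 495 shared genes called higher. DESeq2 called 1482 higher, 503 of them shared. Log2(FPKM + 1) gave 1480 and 505 calls, 479 shared lower and 534 shared called higher, log2(FPKM + 0.1) gave 1514, 478, 479 and 560, and separation on FPKM gave 479 shared lower. The cause of these moves was not tested. Without the 4 libraries with muscle transcripts 14 and 13 genes were called, from fewer samples. With a tighter limit on the means 205 and 234 shared genes were called.

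Leaving out 1 library at a time gave 422 to 770 higher and 378 to 714 lower calls, 745 to 1126 shared genes higher and 840 to 1319 lower, and 137 to 305 shared called higher and 186 to 374 lower, lowest without saline 2 for all but the shared counts. Endothelial calls ranged from 25 to 32, with 10 to 18 shared. Calls in the gene lists with the block, against the main contrast, numbered 30 and 32 for endothelium, 14 and 15 for macrophages, 12 and 15 for NRF2 targets, 6 and 13 for cholesterol, 10 and 14 for other P450 enzymes, 4 and 8 for bile acid genes and 2 and 6 for PPARα targets. Cyp2c40 was not called with the block (edgeR adjusted p = 0.0556). With the exposed libraries as 1 group those lists had 25, 2, 0, 1, 6, 0 and 0 calls. Without 1 library macrophage calls ranged from 12 to 15, with 0 to 1 shared. In 19 settings, 1109 of 1339 pairs of named gene and setting kept the status of the main contrast, called or not. The call was lost in 230 pairs and none reversed. The kept pairs include 19 of Egfr, which was not called in the main contrast or in any setting. Depth was alike between libraries. In the simulation 18% of 1.5-fold changes were recovered, with 138 calls among 17500 genes, where the data gave 1720 calls among 18113. That rate therefore does not carry over, and how completely the smaller shared changes were counted was not tested.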
